A study of Mus musculus with 16 samples.

Results

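Iron absorption and storage were followed through 8 genes, taken by symbol from the 24420 genes of each deposited table, and all 8 were found in both tables. They were Slc11a2 and Cybrd1 (iron import), Slc40a1 and Heph (iron export), Fth1 and Ftl1 (the ferritin subunits), Hmox1 (heme breakdown) and Tfrc (the transferrin receptor). The libraries were mouse small intestine of strain C57B6 per the labels, sequenced as 3' tags, which read about once per transcript near its polyadenylated end. Isolated enterocytes, the absorptive epithelial cells, came from WT (4 libraries) and Mfge8 KO mice (5 libraries, called Mfge8 null in their titles). Intestinal tissue came from WT (4 libraries) and Cd36 KO mice (3 libraries, called Cd36 null). The labels named no age, diet, promoter or Cre line, and the genotypes and the strain were all they gave for the animals. The protein MFGE8 is secreted and is a ligand of integrins. CD36 sits in the cell membrane and takes part in the uptake of long-chain fatty acids.

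Dietary iron enters the enterocyte at the brush border, chiefly in the duodenum. There a reductase (Cybrd1) makes ferrous iron, and a proton-coupled transporter (Slc11a2, DMT1) carries it in. Inside the cell it is stored in ferritin, a shell of heavy (Fth1) and light (Ftl1) chains of which the heavy chain oxidises iron, or it leaves through ferroportin (Slc40a1) with the ferroxidase hephaestin (Heph). Iron-regulatory proteins bind stem-loops called iron-responsive elements in several of these mRNAs. In iron-poor cells, binding in a 5' UTR blocks translation and binding in the Tfrc 3' UTR protects the mRNA, so the ferritin protein level need not follow its mRNA.

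The stem-loops through which ferritin, ferroportin and the transferrin receptor are controlled were read from GENCODE M21 transcripts (build GRCm38, the mm10 of the submitters' notes). The pattern searched, on the transcript strand, was a C, 5 bases, the loop CAGTGN and 5 bases pairing with the first 5 (G-U pairs allowed). It was found in the 5' UTR of 28 of 20857 protein-coding genes (0.134%) and the 3' UTR of 127 of 20964 (0.606%). Among the 8 genes it was found in 4, as 7 matches. The windows of 27 bases are shown because they mark in which of the measured mRNAs this pattern was found and at which end, with the loop in capitals.
Fth1, 5' UTR, chr19:9982733-9982759, plus strand: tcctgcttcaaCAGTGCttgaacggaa
Ftl1, 5' UTR, chr7:45459780-45459806, minus strand: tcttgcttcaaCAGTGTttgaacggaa
Slc40a1, 5' UTR, chr1:45925466-45925492, minus strand: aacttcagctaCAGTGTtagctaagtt
Tfrc, 3' UTR, chr16:32631220-32631246, plus strand: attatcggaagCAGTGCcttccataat
Tfrc, 3' UTR, chr16:32631599-32631625, plus strand: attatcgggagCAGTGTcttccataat
Tfrc, 3' UTR, chr16:32631664-32631690, plus strand: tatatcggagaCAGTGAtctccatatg
Tfrc, 3' UTR, chr16:32631711-32631737, plus strand: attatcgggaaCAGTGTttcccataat
The Fth1 and Ftl1 windows were identical at 25 of 27 positions and differed by C3T and C17T (Fth1 base first, positions counted from 1 at the 5′ end of the window). The 4 Tfrc matches lay 1062 to 1553 bases before the transcript's end. No match in the other 4 genes says only that this strict pattern was not present in their annotated UTRs.

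**Figure D1:**
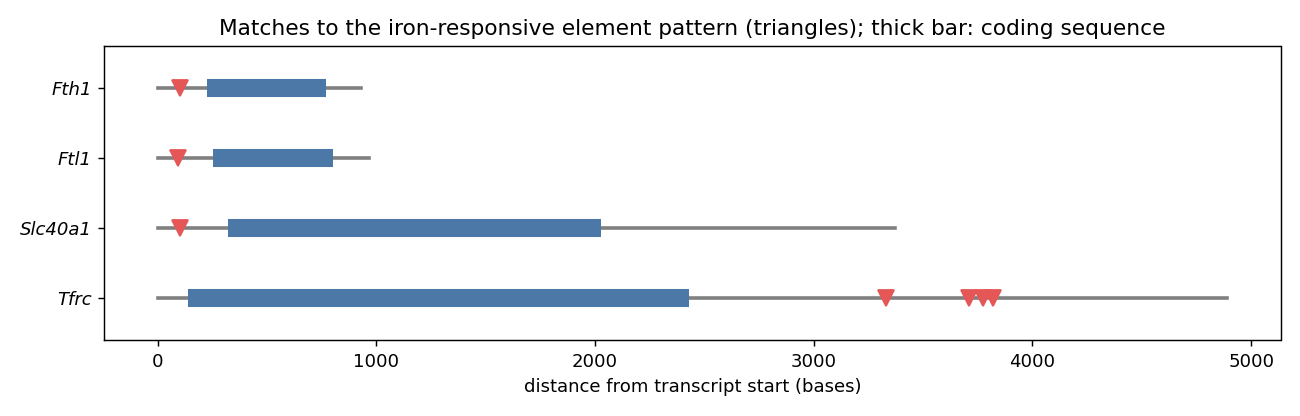
Position of the iron-responsive element matches (triangles) along the transcripts of Fth1, Ftl1, Slc40a1 and Tfrc, in bases from the transcript start, with the coding sequence as a thick bar. The matches of Fth1, Ftl1 and Slc40a1 lie before the coding sequence, and the 4 of Tfrc lie after it.

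Enterocyte libraries held 1618369 to 2459812 reads and intestine libraries 850297 to 1000694. Levels are normalised read counts, reads divided by 1 size factor per library, and the 2 tables were normalised separately. Intestine libraries of the same genotype differed by about the sampling noise (chi-square per degree of freedom 0.987 to 1.12 over 9 pairs, against 6.26 to 20.2 over 16 enterocyte pairs). Of the 9 pairs, 5 still differed at p under 0.05, so they were not identical, and the labels do not say how they were made. They were counted as 1 sample per genotype as a precaution, with ranges over libraries and no test of genotype. Enterocyte libraries were used as the replicates, but no label ties them to separate animals. Their p-values therefore refer to library-to-library spread alone, part of which may be technical. All 7 intestine libraries held both Xist and the Y-linked Ddx3y, and Xist was at 441 to 498 in WT and 319 to 360 in Cd36 null libraries. No enterocyte library held a read of Xist. The 9 enterocyte markers fixed for this check summed to 39268 to 70007 normalised reads in enterocytes and 29511 to 30496 in intestine libraries. These sums lie on different scales, because the 2 tables were normalised separately at different depths. They do not compare the content of enterocytes between the sample types. The 11 markers of fibroblasts, smooth muscle and endothelium summed to only 17.0 to 36.4 in the intestine libraries. Among them Dcn was read in every intestine library (15.4 to 27.0 in WT, 7.24 to 10.6 in Cd36 null). The endothelial Cdh5 was at 0 in all of them. Reads of these gut wall markers were thus few in the libraries labelled as tissue. Whether the samples held little of the gut wall was not tested, as a 3' end can go uncounted.

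The targeted genes followed the labels. Mfge8 was 14.8 ± 6.70 (SD, n = 4) in WT and 3.45 ± 2.43 (n = 5) in Mfge8 null enterocytes, with no overlap (exact permutation p = 0.0159, 2-sided, where the smallest possible is 0.00794). The separation was narrow, as the highest null library (null 4) was at 7.50 (7 reads) and the lowest WT library (WT 4) at 7.94 (8 reads). Cd36 was at 111 to 116 in WT and 6.48 to 16.0 in Cd36 null intestine. The deleted parts of the genes are not given, so 3' tags check the labels only as far as the 3' end is affected.

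In WT enterocytes the iron genes spanned the range from some of the highest read counts to almost no reads. Because a 3' tag library counts transcripts rather than their length, levels were also compared between genes as RPM, the reads of a gene scaled to equal library totals. Fth1 led with a mean of 5878 RPM in WT enterocytes and ranked 14th of all genes. Heph (307) and Ftl1 (270) followed, with ranges of 209 to 390 and 217 to 319 that overlapped. Slc11a2 was at 66.4 and Tfrc at 20.5, and the libraries of the 2 genes did not overlap. Hmox1 (1.38), Slc40a1 (0.712) and Cybrd1 (no read in any WT enterocyte library) closed the order and could not be told apart. Few reads need not mean a nearly absent mRNA, as a 3' end can go uncounted, which was not tested.

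The brush border reductase and the exporter were hardly read in any group. Cybrd1 had 0 reads in 8 of the 9 enterocyte libraries, which allows up to 2.35 to 3.51 normalised reads per library at a limit of 3 reads, and 3 reads in Mfge8 null 3. In intestine it had 0 to 3 reads per library. Slc40a1 was at 0, 2.08, 0 and 2.98 normalised reads in WT enterocytes (replicates 1 to 4) and at 5.88, 0, 4.99, 2.14 and 4.92 in Mfge8 null enterocytes (replicates 1 to 5). The groups overlapped, and no fold was computed at 0 to 6 reads per library. In intestine Slc40a1 was at 1.03 to 7.18 in WT and 0.905 to 5.55 in Cd36 null libraries. The duodenal transcription factor Pdx1 was likewise at or near 0 in all groups, with at most 1.06 normalised reads in any library, whereas Gata4 was read in every group (14.9 to 77.7). Hmox1, which breaks down absorbed heme, had 0 to 5.96 normalised reads over all 16 libraries. The 12 macrophage markers, the other gut source of Hmox1 and Slc40a1 considered, summed to 25.2 to 102 in enterocytes, with 3 of the 12 passing the filter on low values and Cd163 and Spic at 0 throughout. In intestine they summed to 8.26 to 18.1, on the separate scale of that table.

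**Figure D2:**
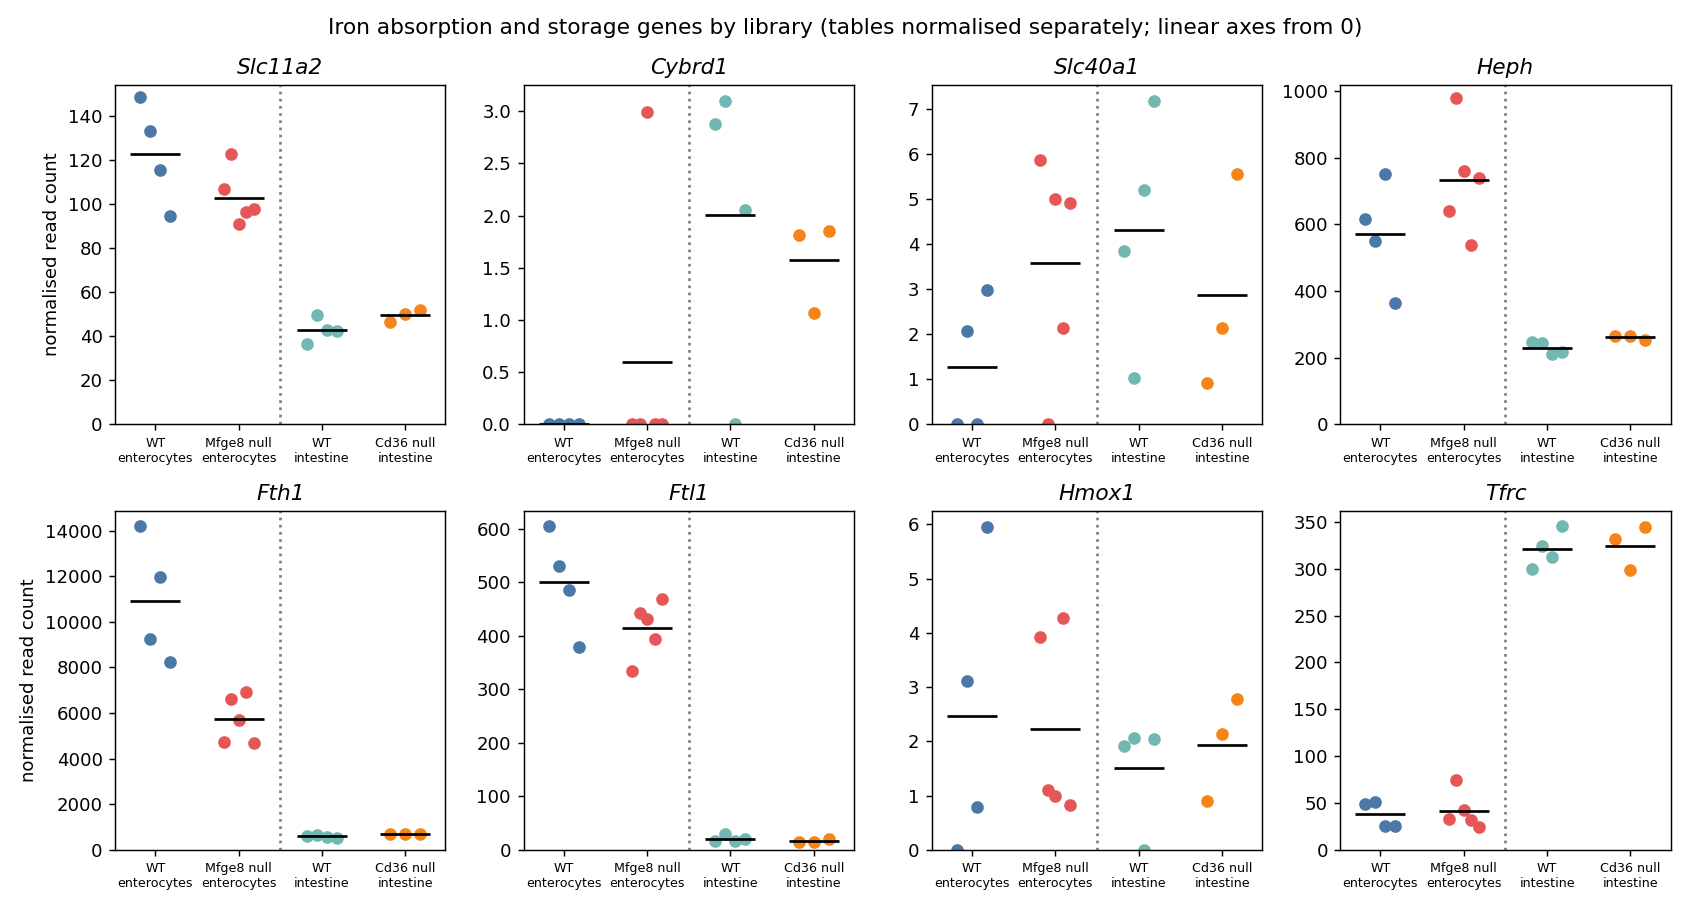
Normalised read counts of the 8 iron genes in every library (points) with the group mean (line), on linear axes from 0; the dotted line separates the tables, which were normalised separately. Fth1 is the 1 gene whose WT and Mfge8 null enterocyte libraries do not overlap, and Cybrd1, Slc40a1 and Hmox1 stay at a few reads everywhere.

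The enterocyte comparison asked which iron genes differed when Mfge8 was absent. Ferritin heavy chain mRNA fell to 52.4% of its WT level in Mfge8 null enterocytes, while the light chain, the importer, hephaestin and the transferrin receptor did not pass the test. Of the 8 genes, 5 reached the minimum of 5 normalised reads in at least 4 libraries and were tested with limma over all 9432 such genes, and 3 (Cybrd1, Slc40a1 and Hmox1) did not. Of the 5, 1 was lower and none higher at an adjusted p of 0.05, where 3.21% of all tested genes passed in either direction, 1.63% lower and 1.58% higher. With 5 genes, that share carries little weight.

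Fth1 was at 14198, 9261, 11952 and 8241 normalised reads in WT enterocytes 1 to 4. It was at 4713, 6622, 5675, 6920 and 4673 in Mfge8 null enterocytes 1 to 5. Every null library lay below every WT library, as for 3.07% of all tested genes (6.42% in either direction). The means were 10913 ± 2692 (SD, n = 4) and 5721 ± 1045 (SD, n = 5), a log2 change of -0.92 (SE 0.21, 95% interval -1.37 to -0.47, limma adjusted p = 0.0245). An exact permutation test of Fth1 alone gave an unadjusted p = 0.00794 (2-sided), the smallest this design allows. Groups without overlap are the most extreme split in 1 direction, so a small value followed from the separation given above. The test was planned for the targeted genes only and adds no support here. Fth1 took 0.588% of all reads in WT and 0.290% in null enterocytes, and its rank went from 14 to 28. The call was made in 10 of 20 alternative settings (adjusted p from 0.000136 to 0.155), and the direction was the same in all 20. It was lost when WT 1, WT 2, WT 3, null 1, null 3 or null 5 was left out, with adjusted p between 0.0523 and 0.105.

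Ftl1 was at 604, 530, 486 and 379 in WT and at 335, 443, 431, 394 and 468 in Mfge8 null enterocytes. The groups overlapped, with WT 4 below 4 of the 5 null libraries, and the change did not pass (log2 -0.26, 95% interval -0.60 to 0.08, limma adjusted p = 0.454). Within each library, Fth1 exceeded Ftl1 by 17.5 to 24.6 times in WT and by 9.98 to 17.6 times in Mfge8 null enterocytes. This ratio does not depend on the size factor, and the highest null library (null 4, 17.6) just passed the lowest WT library (WT 2, 17.5). Ferritin pseudogenes bear on the light chain more: 75.5% of the 50-base windows in the last 400 bases of the Ftl1 transcript were identical in a transcript of another gene, such as Ftl1-ps1, against 13.7% for Fth1. Reads from such windows can be lost or shared in the counting, so Ftl1 levels are uncertain. The other 6 genes had no such window.

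The genes of import, export and uptake from the blood did not separate the genotypes. Slc11a2 was at 148, 133, 115 and 94.3 in WT and at 107, 123, 90.9, 96.4 and 97.6 in Mfge8 null enterocytes. The groups overlapped (log2 -0.24, 95% interval -0.60 to 0.12, limma adjusted p = 0.529). Its transcripts end in alternative 3' ends, which the gene count does not separate. Heph was at 615, 551, 752 and 364 in WT and at 641, 981, 761, 540 and 740 in Mfge8 null enterocytes. Its groups also overlapped, with WT 4 lowest and null 2 highest (log2 0.38, 95% interval -0.06 to 0.81, limma adjusted p = 0.391). Tfrc, which brings transferrin-bound iron in from the blood side and is high in dividing cells, was at 49.1, 50.9, 25.9 and 25.8 in WT. In Mfge8 null enterocytes it was at 33.3, 74.5, 42.0, 32.1 and 23.8. The interval of its change was wide in both directions (log2 0.08, 95% interval -0.58 to 0.74, limma adjusted p = 0.940), and its sign turned with the library left out: -0.16 without null 2, -0.07 without WT 3 and -0.08 without WT 4.

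**Figure D3:**
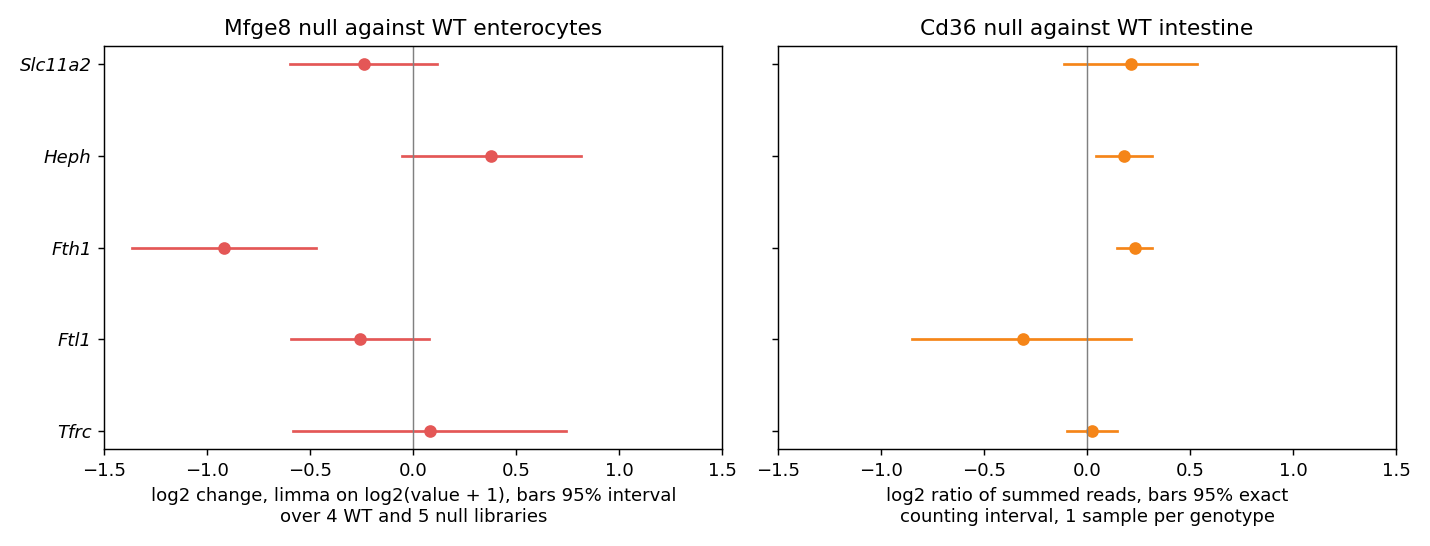
Log2 change of the 5 iron genes with enough reads in both tables, in Mfge8 null against WT enterocytes (left, limma, bars are 95% intervals over libraries) and Cd36 null against WT intestine (right, ratio of summed reads, bars are 95% exact counting intervals). On the left only the interval of Fth1 (-1.37 to -0.47) lies off 0, and on the right those of Fth1 and Heph do.

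The enterocyte libraries differed in markers of position along the gut, on which genes of absorption are known to depend. A regional score was taken as the mean log2 level of 5 genes of the proximal gut less the mean of 4 ileal genes. It was 3.70, 2.13, 2.20 and 0.513 in WT libraries 1 to 4. It was 0.653, 1.91, -0.168, 2.72 and -1.30 in Mfge8 null libraries 1 to 5. The genotypes overlapped, with null 5 and null 3 at the ileal end and WT 1 at the proximal end. In 1 model with genotype, Fth1 rose with the score by 0.17 log2 units per unit of score (SE 0.07, unadjusted p = 0.0195), which did not pass over all genes (limma adjusted p = 0.550). Slopes of the other 4 genes ranged from 0.04 to 0.21 and none passed, where 0.0212% of all genes passed. With the score in the model, Fth1 changed by -0.68 between genotypes and did not pass (limma adjusted p = 0.120). The score itself held genes called between the genotypes. Of its 5 proximal genes, 1 was lower in Mfge8 null libraries and 0 higher (Onecut2, limma adjusted p = 0.0401). Of its 4 ileal genes, 1 was higher and 0 lower (Slc51b, limma adjusted p = 0.00615). Leaving out null 3 and null 5 together, an alternative chosen after seeing the data, gave -0.83 and an adjusted p of 0.155. This model cannot separate region from genotype, and the share of region in the difference was not tested.

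**Figure D4:**
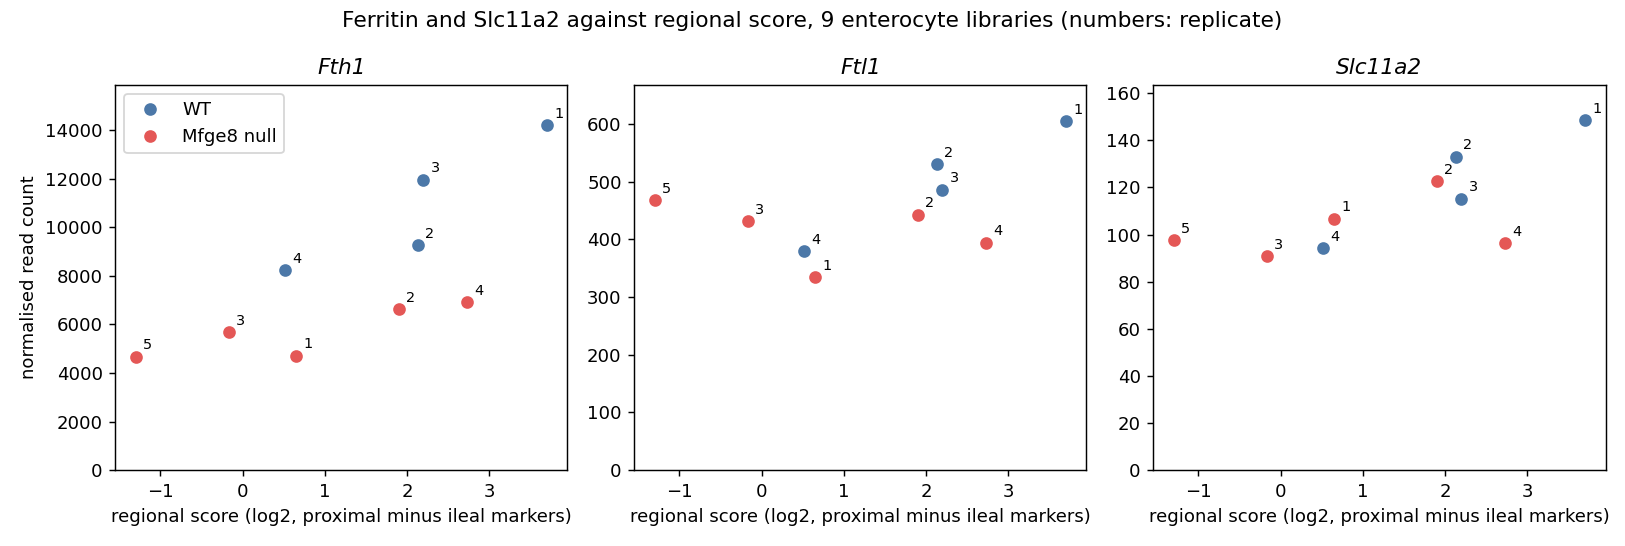
Normalised read counts of Fth1, Ftl1 and Slc11a2 against the regional score of each enterocyte library (higher is more proximal; numbers are replicates). WT libraries score 0.513 to 3.70 and Mfge8 null libraries -1.30 to 2.72, and both the score and Fth1 are lowest in null 5 and highest in WT 1.

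Markers of other cell types were read in the enterocyte libraries. The 7 goblet and Paneth cell markers summed to 9146 to 13978 in WT and 5351 to 16176 in Mfge8 null libraries, with none passing. The 7 tested of 8 proliferation markers had a median log2 change of 0.66 with none passing, and their summed level was 116 to 193 in WT and 135 to 243 in Mfge8 null enterocytes. The 9 markers of T cells had a median of 0.96 with none passing, and summed to 1137 to 3388 in WT and 3151 to 7366 in null libraries. Of 6 B cell and plasma cell markers, 1 passed: Jchain, an antibody-joining protein of plasma cells, rose from 58.5 ± 43.1 to 294 ± 126 (limma adjusted p = 0.00331). The 6 summed to 17.5 to 124 in WT and 206 to 501 in null libraries, without overlap, and Cd79a was at 0 throughout. The macrophage markers summed to 47.0 to 73.8 and 25.2 to 102. The 7 erythroid markers summed to 8.18 to 38.5 and 1.64 to 10.8, and the globin genes Hba-a1, Hba-a2, Hbb-bs and Hbb-bt were at 0 in every library. The part of these cells in the iron genes was not tested. In these bulk samples, fewer cells of a type and less RNA per cell cannot be told apart.

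The wider iron pathway was described through 75 genes in 5 lists. In the list of other iron and heme transport, 19 of 21 genes had deposited values under their symbols. Of the 75 genes, 53 were tested in enterocytes. Of these, 3 were higher and 3 lower in Mfge8 null enterocytes (11.3% against 3.21% of all genes tested), with a median log2 change of -0.05 against 0.001 for all genes. These shares are a description, as the lists were chosen with earlier results known.

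Among 12 tested regulators of iron, which included the iron-regulatory proteins Aco1 and Ireb2, the iron sensor Fbxl5 and the hypoxia-inducible factors, 1 was higher and none lower (median -0.04). It was Egln3, an oxygen- and iron-dependent prolyl hydroxylase that marks hypoxia-inducible factors for breakdown. Egln3 rose from 99.2 ± 26.9 (SD, n = 4, range 75.4 to 131) to 334 ± 204 (SD, n = 5, range 173 to 676), a log2 change of 1.60 (SE 0.31, limma adjusted p = 0.00907). Its groups did not overlap, though the null libraries spread widely. Epas1, the hypoxia-inducible factor known to drive Slc11a2 and Cybrd1 in mouse duodenum, was at 44.6 ± 6.08 and 57.9 ± 17.5 and did not pass (limma adjusted p = 0.587).

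Of 8 tested genes of other iron and heme transport, 1 was lower and none higher (median -0.09). It was Slc46a1, a proton-coupled folate transporter that has also been described as a heme carrier, at 195 ± 75.7 in WT and 64.9 ± 39.8 in Mfge8 null enterocytes (log2 -1.67, SE 0.37, limma adjusted p = 0.0184). Its ranges, 95.3 to 270 and 31.3 to 125, overlapped. None of 13 tested genes of heme and iron-sulfur cluster synthesis or heme breakdown passed (median -0.16).

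Of 12 tested targets of hypoxia-inducible factors, Egln3 rose and Ndrg1, a stress-responsive gene, fell, from 362 ± 109 to 146 ± 61.4 (log2 -1.36, limma adjusted p = 0.0119; list median 0.22). Of 10 tested targets of NRF2, the oxidative stress regulator that also acts on ferritin genes, 2 rose and 1 fell (median 0.27). Gsr, glutathione reductase, rose from 233 ± 60.5 to 565 ± 88.6 (log2 1.30, limma adjusted p = 0.000505), and Srxn1, sulfiredoxin, from 1628 ± 202 to 2550 ± 385. Gclm, a subunit of the enzyme that starts glutathione synthesis, fell from 376 ± 34.7 to 227 ± 53.5 (limma adjusted p = 0.0229; 0.0363 for Srxn1). Of 20 alternative settings the call held in 20 for Gsr, 19 for Egln3, 18 for Ndrg1, 13 each for Slc46a1 and Gclm, and 11 for Srxn1. It was lost for Ndrg1 without WT 1 and for Slc46a1, Gclm and Srxn1 without any of WT 1, WT 2 or WT 3. Leaving out null 3 also ended the call for Slc46a1 and Srxn1, null 4 that for Gclm and Srxn1, and null 5 that for Slc46a1 and Gclm. With the regional score in the model Egln3 (adjusted p = 0.0530), Ndrg1, Gclm and Srxn1 did not pass limma.

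**Figure D5:**
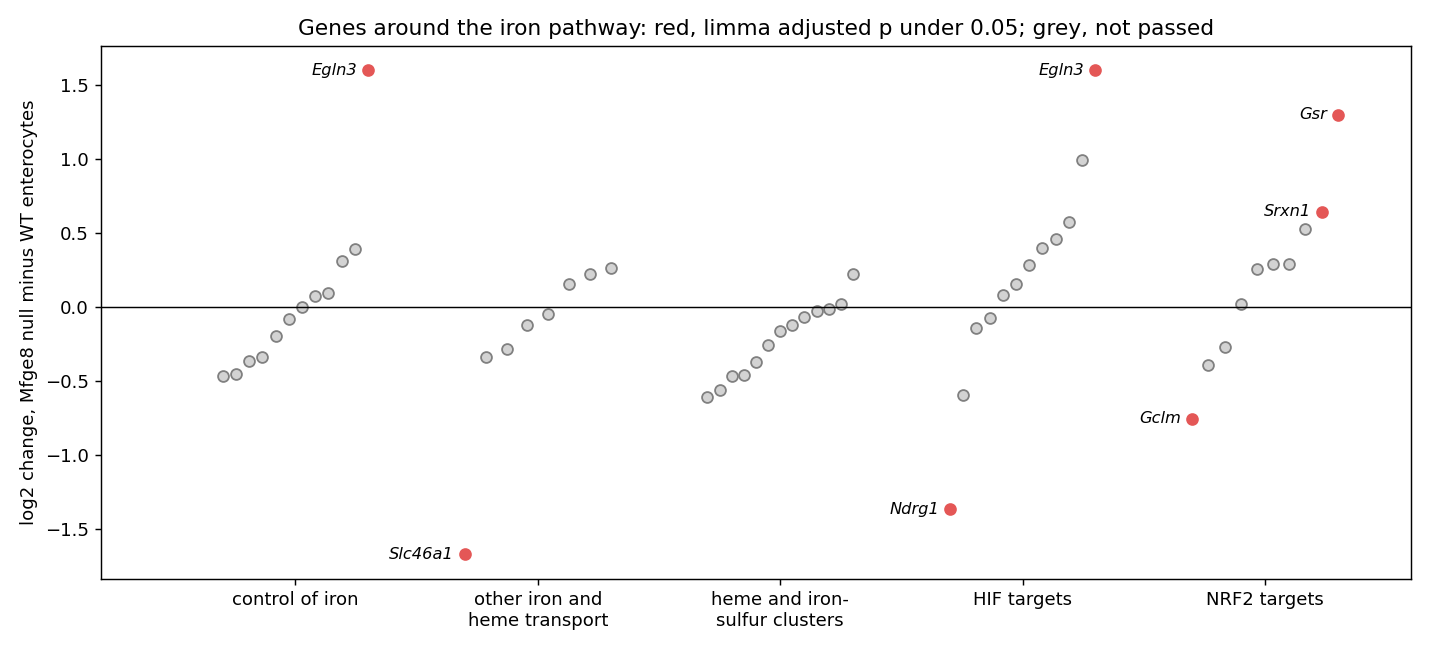
Log2 change in Mfge8 null against WT enterocytes of each tested gene in 5 lists around the iron pathway; red points passed limma at an adjusted p of 0.05 and are named, grey points did not pass. Egln3 (1.60) stands in 2 lists, and Slc46a1 (-1.67) is the lowest point.

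Genes whose profile over the 9 enterocyte libraries was most like that of Fth1 were Hadh (Pearson r = 0.970 on log2 values), Akr1b7 (0.967), Mtch2 (0.966), Leap2 (0.962) and Slc46a1 (0.956). Fth1 was chosen for this after its values were seen. These genes share the libraries, their depth and the genotype split, so the correlations are a description. By the rule for named genes the iron gene with the widest spread was Slc40a1, at 0 to 6 reads, and its nearest profiles were Tmsb4x (0.959), Trim14 (0.942), Ccna2 (0.939), Dnmt1 (0.939) and Itih5 (0.935). At so few reads these say little.

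In the intestine comparison, which asked the same of Cd36, none of the iron genes passed the rule of a 1.5-fold difference without overlap of libraries, which 6.06% of 9314 tested genes passed. Of the 8 genes, 6 reached the minimum, and Cybrd1 and Hmox1 did not. Fth1 was at 624, 634, 570 and 524 in WT libraries 1 to 4 and at 689, 708 and 680 in Cd36 null libraries 1 to 3. All null libraries lay above all WT libraries, at 118% of the WT mean, and the ratio of summed reads was 1.17 (95% exact interval 1.11 to 1.25, counting error only). Heph also lay above WT in every null library, at 246, 245, 212 and 217 in WT and 264, 264 and 253 in null, with a ratio of 1.13 (1.03 to 1.25). Such separation was seen for 16.5% of all tested genes, and for 8.61% upward. Taken as a comparison of these libraries and not of genotypes, limma gave an adjusted p of 0.000952 for Fth1 and 0.128 for Heph, where 7.50% of all tested genes passed. Heph is X-linked, and the Xist level given above differed between the genotypes; its part in the Heph value was not tested.

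The other tested genes overlapped between the intestine groups. Slc11a2 was at 36.5 to 49.6 in WT and 46.1 to 51.8 in Cd36 null libraries (read ratio 1.16, 0.924 to 1.45). Tfrc was at 300 to 346 and 298 to 344 (1.02, 0.936 to 1.10). Ftl1 was low, at 16.3 to 28.9 and 13.8 to 20.4 (0.805, 0.555 to 1.16). For Slc40a1, with 17 and 9 reads in all, the ratio was 0.669 (0.263 to 1.59). Beside these values, of 5 ileal markers 1 was lower and 1 higher by the fold rule: Fabp6 was at 263 to 284 in WT and 62.9 to 77.7 in Cd36 null libraries, and Fgf15 at 5.16 to 10.3 and 20.8 to 27.7. The ileal markers summed to 983 to 1046 and 689 to 748, and the proximal markers summed to 4250 to 4544 and 4942 to 5166. No proximal marker passed the fold rule. Most of the proximal sum was Fabp1, at a mean of 3367 in WT and 4011 in Cd36 null libraries (1.19 times). The ratios of Gata4, Onecut2, Lct and Cyp2c65 were at most 1.07, so the proximal sum mainly followed Fabp1. The proliferation markers summed to 390 to 422 and 288 to 313, with 1 lower by the fold rule (Mki67, 73.0 to 116 and 53.7 to 65.1). The 9 T cell markers summed to 671 to 856 and 571 to 595, with 4 lower by the fold rule (Cd7, Cd8b1, Gzmb and Itgae). Of the 11 fibroblast, smooth muscle and endothelial markers, 1 reached the minimum. It was Dcn, lower by the fold rule at 0.424 times the WT mean. The part of region, cycling cells, T cells and fibroblasts in the iron genes was not tested.

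Of the 75 pathway genes, 51 were tested in intestine, and 2 were higher and 2 lower by the rule (7.84% against 6.06% of all genes). Epas1 was lower, at 79.0 to 96.0 in WT and 31.9 to 43.4 in Cd36 null libraries, 0.421 times the WT mean. Steap2, a metalloreductase, was lower (19.6 to 25.0 and 7.40 to 10.9). Mcoln1, a lysosomal cation channel that passes iron, was higher (4.16 to 7.23 and 10.2 to 16.3), as was the glucose transporter Slc2a1 (18.7 to 32.0 and 36.1 to 44.7), a gene from the list of hypoxia-inducible factor targets. With libraries counted as 1 sample per genotype, these differences have no replicate check.

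Set side by side, the WT groups held very different proportions of storage and uptake mRNA. In RPM, Fth1 was at 5878 in WT enterocytes and 663 in WT intestine, 8.87 times apart, and Ftl1 at 270 and 22.9, 11.8 times apart. Only 0.806% and 0.491% of the 8560 genes tested in both tables had a ratio at least as high. Tfrc went the other way, at 20.5 and 361, 17.6 times higher in intestine, and 0.327% of genes had a ratio as low. Pcbp2, from the list of iron regulators, lay further apart in the same direction, at 21.5 and 433.5 (20.15 times higher in intestine). A ratio of this size was thus not particular to Tfrc. Tfrc was 0.216% to 0.550% of the Fth1 level in WT enterocytes and 48.0% to 65.9% in WT intestine. Heph (307 and 259) and Slc11a2 (66.4 and 48.1) were close. The proliferation markers summed to 116 to 193 normalised reads in WT enterocytes and 390 to 422 in WT intestine. These sums are not in RPM and lie on separate scales, so they do not give the size of a difference. They also do not speak for every marker. Pcna went the other way, at a mean of 32.1 normalised reads in WT enterocytes and 2.81 in WT intestine. The means of the other proliferation markers were higher in intestine. Sample type, RNA kit, library set and table all changed together and cannot be told apart, so no test was made.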

How the data were processed

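The submitters' processing notes list the build mm10 and name DESeq2 2.11.40, HTSeq 0.91, HISAT2 2.1.0 and Trimmomatic 0.38.1. Settings, strand and use of UMIs are not given in the sources used here. The deposited values are a normalised signal, which the authors made from read counts and 1 size factor per library. Dividing each library by its lowest value above 0 gave whole numbers throughout (100%, tolerance 1e-06), taken as reads; for WT 4 and null 3 of the enterocytes this step is less certain. Without known UMI collapsing, intervals and limits cover counting error only.

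The tests covered genes reaching 5 in as many libraries as the smaller group held (4 and 3). Enterocytes were compared by limma-trend (version 3.58.1) on log2(value + 1) in R 4.3.3, 2-sided, with Benjamini-Hochberg adjustment over all 9432 genes; fold changes of low genes are understated on that scale. Intestine libraries were compared by ratios of means and exact binomial intervals of recovered reads. edgeR 4.0.16 and DESeq2 1.42.0 on recovered reads were alternatives. The procedures were tested on simulated data. The members and lists were chosen with earlier results of these data known. Named genes were the members, the targeted genes, list genes that passed, and the 5 closest profiles of the most variable member. Fth1 profiles were added after its values were seen. Flvcr1 and Flvcr2 were not analysed here.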

Additional observations from a re-analysis of the deposited data

Results flagged for a closer look

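Of 23 groups of 4 or 5 libraries checked over the 8 genes, 2 held a library set apart from the others by Dixon's criterion, which chance does in about 1 in 20 groups. Cybrd1 was at 2.997 normalised reads (3 reads) in Mfge8 null 3 and at 0 in the other 4 null enterocyte libraries. Hmox1 was at 0 in WT intestine 3 and at 1.92 to 2.07 (2 reads each) in the other 3. Both rest on 3 reads or fewer.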

How the results depend on the processing

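In enterocytes 149 genes were higher and 154 lower. DESeq2 called 227 higher. With the regional score as a covariate the counts were 80 higher and 70 lower, and without null 3 and null 5 together, chosen after seeing the data, 51 and 65. Leaving out 1 library gave 73 to 197 higher and 62 to 190 lower. The count of iron genes lower was 1, and 0 without a filter on low values, with the regional score, with the replicate number as a block and without null 3 and null 5; leaving out 1 library gave 0 to 1. None was higher in any setting. Replicate numbers did not pair the libraries (correlations of deviations -0.12, -0.0744, 0.214 and 0.0911; 1 of 4 WT libraries correlated best with its own number); the replicate block gave Fth1 -0.85 (limma adjusted p = 0.0918), the estimate without null 5, which has no partner. Tfrc, not called, turned sign in 4 of 20 settings (-0.048 by edgeR on the 7 libraries with a certain read step, chosen after seeing the data; leaving out 1 library gave -0.16 to 0.24). Leaving out 1 library moved the regional slope of Heph between -0.042 and 0.171 and that of Ftl1 between -0.014 and 0.113, both negative without WT 4. In intestine 564 genes passed the fold rule, 353 with a pseudocount of 5, 1143 at 1.2-fold and 233 at 2-fold; limma over libraries called 1 iron gene (Fth1), with and without a replicate block, and the fold rule 0. The cause of these changes was not tested. Depth limits Cybrd1, Slc40a1 and Hmox1 most, where a difference was not detectable.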
